A study of Mus musculus with 16 samples.

Results

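The MYC and MXD network was described here by 10 genes, *Myc*, *Mycn*, *Max*, *Mxd1*, *Mxi1*, *Mxd3*, *Mxd4*, *Mnt*, *Mga* and *Mlx*, taken by gene name from the 46078 genes counted in each of 16 RNA sequencing libraries. The libraries came from polychromatic (Poly-E) and orthochromatic (Ortho-E) erythroblasts, the last nucleated stages of red cell formation, sorted by Ter119 and CD44 from steady-state mouse bone marrow without further treatment. Mice were *Ypel4*+/+ or *Ypel4*-/- on a C57BL/6N background with the coat colour allele A<tm1Brd>, the label for both genotypes also naming the allele Ypel4<tm1a(EUCOMM)Wtsi>/WtsiIeg, and each of the 4 groups held 4 libraries. The *Ypel4* allele is a gene trap carried by every cell of the animal, so the surrounding marrow of *Ypel4*-/- mice carried it too. The age of the mice was not given in the sources used here. All 10 genes were found, 9 had at least 10 counts in every comparison and were tested, and *Mycn* had 1 count over all 16 libraries and was not tested.

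MYC and MYCN are transcription factors that bind DNA only as dimers with MAX and activate genes for growth, ribosome formation and cell division. MXD1, MXI1 (also called MXD2), MXD3, MXD4 and MNT take MAX as partner in place of MYC and recruit the SIN3 corepressor with its histone deacetylases to the same E-box sequences. MGA joins MAX to a Polycomb-type complex, and MLX pairs with MNT, MXD1, MXD4 and the glucose-sensing MondoA and ChREBP. In maturing cells of many lineages, the blood among them, MYC falls as division ends and several MXD proteins rise.

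Depth was 2670173 to 8287509 counts in Ortho-E and 3235398 to 12451234 counts in Poly-E, and *Ypel4* itself was lower in every *Ypel4*-/- library (9.90 to 23.6 CPM, the TMM-scaled unit used throughout, in Poly-E and 175 to 224 CPM in Ortho-E) than in every *Ypel4*+/+ library (489.8 to 716 and 4432 to 5440 CPM). All 14 erythroblast markers were detected in each group, with a summed level of 61009 to 73741 CPM in Poly-E and 243287 to 332862 CPM in Ortho-E, led by the beta globin gene *Hbb-bs*. With library totals these sums were 98142 to 112580 and 167035 to 201806. *Klf1* (454 to 553 and 294 to 440 CPM) and *Gata1* (265 to 305 and 204 to 243 CPM) were lower in Ortho-E. *Epor* overlapped between the populations, and *Cd44*, used in the sort, was low in both (1.82 to 4.58 and 0 to 2.86 CPM). The other erythroblast markers were higher in every Ortho-E library with TMM. The summed level of 10 granulocyte markers was 0.926 to 4.66 CPM in Poly-E and 1.71 to 18.2 CPM in Ortho-E, that of 8 macrophage markers 1.16 to 4.45 and 5.71 to 10.6 CPM, that of 9 lymphocyte markers 25.4 to 51.6 and 37.1 to 78.3 CPM (38.5 to 78.8 and 24.3 to 56.8 with library totals, the other way), and that of 7 megakaryocyte markers 26.7 to 35.6 and 89.97 to 113 CPM. With library totals the granulocyte sums were 1.45 to 7.11 in Poly-E and 1.12 to 11.3 in Ortho-E. The macrophage sums were then 1.79 to 6.80 and 3.75 to 6.95, which overlapped. Megakaryocyte sums were 40.8 to 51.5 and 63.7 to 75.2, which did not. The most abundant genes of these lists were *S100a9*, *Vcam1*, *Ighm* and *Itga2b*. Among single markers, *Cd3e* and *Gp1bb* were at 0 in all 16 libraries, *Elane* in 3 of the 4 groups and *Pf4* in both Ortho-E groups. Other genes of the same lists were present, with *Ighm* at 13.6 to 38.7 CPM and *Itga2b* at 12.8 to 103 CPM over all libraries. All 8 macrophage markers had a count in each group. Between genotypes, the lymphocyte sum was higher in every *Ypel4*-/- Ortho-E library (58.1 to 78.3 CPM) than in every *Ypel4*+/+ Ortho-E library (37.1 to 51.3 CPM), also with library totals (36.3 to 56.8 against 24.3 to 34.2). The part of these cell types in the results was not tested.

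CPM here are counts divided by the library total and by a TMM factor, which scales libraries so that most genes have equal levels. The factor was 1.45 to 1.64 in Poly-E and 0.606 to 0.726 in Ortho-E, so the choice of scale set the sign of many differences between the populations. Globin genes took 10.7% to 13.9% of counts in Ortho-E and 5.36% to 6.43% in Poly-E. Leaving them out gave 3097 genes higher and 3770 lower in *Ypel4*+/+ mice with TMM, against 3097 and 3774 with them. The part of globin in the factor was not tested. With TMM, 45.1% of the genes called in *Ypel4*+/+ mice were higher in Ortho-E and the median over all genes tested was -0.19 on the log2 scale. With library totals alone, 14.7% were higher and the median was -1.45. In *Ypel4*-/- mice the same shares were 48.4% and 15.5%, with medians of -0.09 and -1.47. The differences of the members and the counts of each gene list are therefore given on both scales, other levels in CPM are on the TMM scale, and ratios between genes within a library, which need no scale, stand beside them. In bulk libraries, fewer cells with a transcript and less of it per cell cannot be told apart.

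The upstream sequences of the 3 genes called in the same direction on both scales and in both genotypes are shown first. RefSeq windows for GRCm38.p6 were matched for 9 of the 10 genes, as 11 windows, and *Myc* had no window. The 250 bases before the transcript start of *Mxd1* (chr6:86669160-86669409, minus strand), which rose on both scales, and of *Mxd3* (chr13:55329732-55329981, minus strand) and *Mnt* (chr11:74830674-74830923, plus strand), which fell on both scales, read as follows, 5' to 3', with a CACGTG or GGCGGGAA match in capitals.
*Mxd1*: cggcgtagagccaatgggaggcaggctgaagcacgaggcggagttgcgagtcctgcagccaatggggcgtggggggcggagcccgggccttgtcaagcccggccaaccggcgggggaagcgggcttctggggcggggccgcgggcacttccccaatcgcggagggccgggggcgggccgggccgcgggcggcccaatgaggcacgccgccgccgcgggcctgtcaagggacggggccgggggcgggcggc
*Mxd3*: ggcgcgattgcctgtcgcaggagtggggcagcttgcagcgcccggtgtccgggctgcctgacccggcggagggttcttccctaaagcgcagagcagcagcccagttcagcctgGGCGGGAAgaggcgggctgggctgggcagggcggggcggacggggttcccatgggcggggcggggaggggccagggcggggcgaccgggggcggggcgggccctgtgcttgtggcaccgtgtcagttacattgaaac
*Mnt*: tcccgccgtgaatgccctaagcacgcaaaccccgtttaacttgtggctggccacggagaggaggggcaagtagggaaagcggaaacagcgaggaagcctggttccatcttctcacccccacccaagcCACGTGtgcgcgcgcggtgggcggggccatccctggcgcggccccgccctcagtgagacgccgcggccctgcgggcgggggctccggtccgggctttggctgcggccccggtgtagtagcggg
CACGTG is the E-box that MAX dimers bind, GATAAG a site of the erythroid GATA factors, and GGCGGGAA a site of the E2F factors of the cell cycle, and each was searched on both strands. The *Mnt* window held CACGTG at -123 from the start, the *Mlx* window at -40 and the *Mxd4* window at -219, so 3 of 11 windows held it against 6.02% of 32851 windows of the same length. GATAAG was in 0 of the 11 windows against 6.55% of all windows. GGCGGGAA was found in the *Mxd3* window alone, at -137, against 1.86% of all windows. The *Mxd1* window held none of these letters and had a GC content of 78.4%.

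In *Ypel4*+/+ mice, 4 of the 9 genes tested were called higher in Ortho-E than in Poly-E (*Mxd1*, *Max*, *Mxi1* and *Mga*), 2 were called lower (*Mxd3* and *Mnt*), and *Myc*, *Mxd4* and *Mlx* did not pass edgeR's quasi-likelihood test at an adjusted p of 0.05 over all genes. Over all 11747 genes tested, 26.4% were called higher and 32.1% lower. With library totals alone, 1 member (*Mxd1*) was called higher, against 10.4% of all genes, and 5 (*Mxd3*, *Mnt*, *Mlx*, *Mga* and *Mxi1*) were called lower, against 60.3%. *Ypel4*-/- libraries, which are a separate set of mice, gave the same 4 genes higher against a background of 29.5%, and *Mxd3*, *Mnt*, *Myc* and *Mlx* lower against 31.5%. There, library totals left *Mxd1* alone higher, against 11.2% of all genes, and *Mxd3*, *Mnt*, *Myc*, *Mlx* and *Mga* lower, against 60.9%. *Mxd1* up and *Mxd3* and *Mnt* down were thus the calls that both scales shared in both genotypes.

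**Figure D1:**
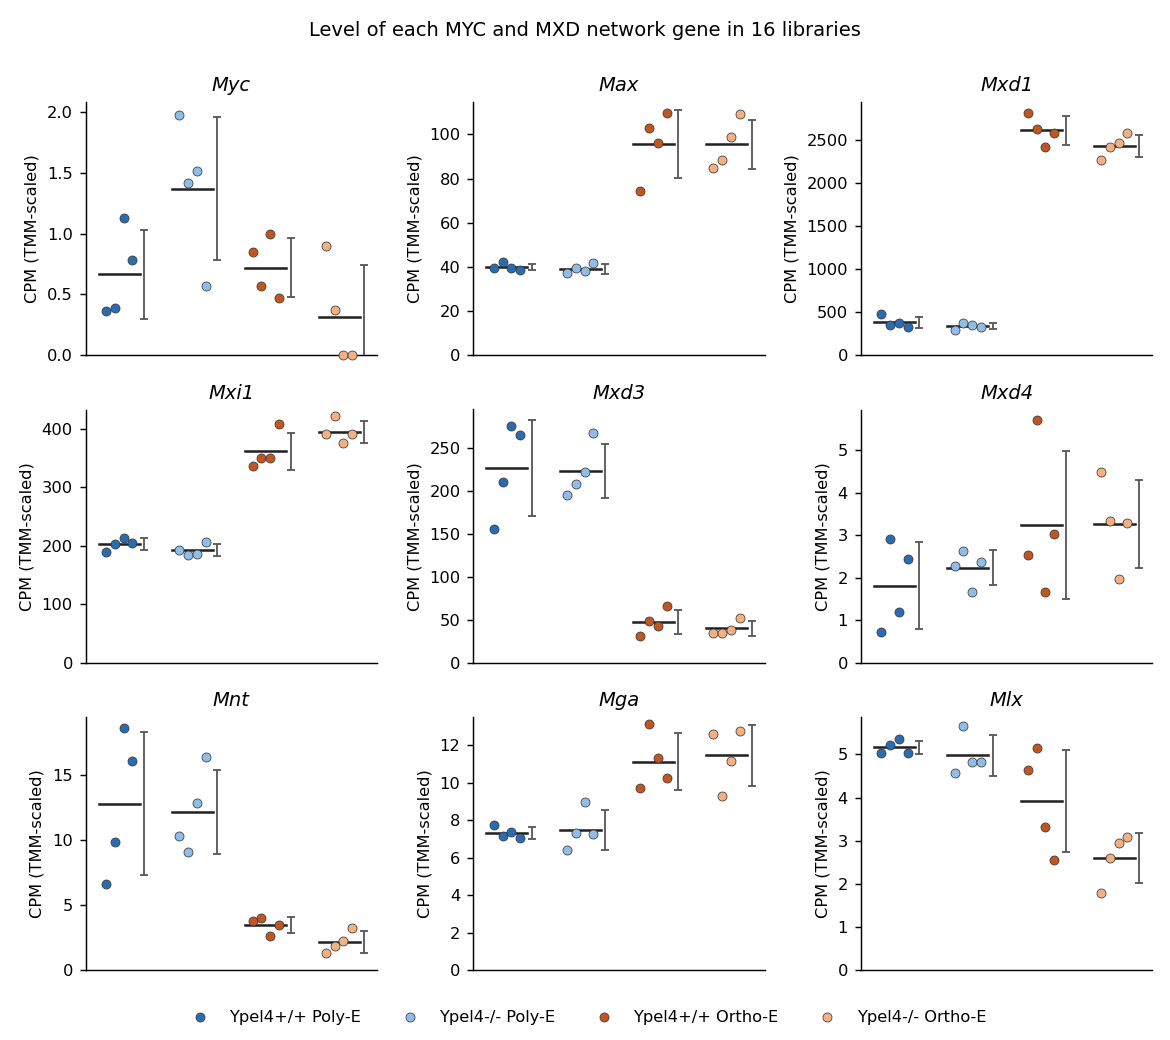
Level of the 9 tested genes in each of the 16 libraries, as CPM with TMM scaling on a linear axis from 0. Points are libraries, horizontal lines are means and the bars beside them 1 SD (n = 4), and the *Mxd1* and *Mxd3* points of Poly-E and Ortho-E do not overlap.

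MAX, the common partner of MYC and MXD proteins, is encoded at chr12:76937269-76962248 (GRCm38, minus strand). Poly-E had 39.9 ± 1.46 CPM (SD, n = 4) of *Max* in *Ypel4*+/+ and 39.1 ± 2.16 CPM in *Ypel4*-/- mice, against 95.7 ± 15.3 and 95.5 ± 11.0 CPM in Ortho-E. Its coefficient of variation between libraries was 3.66% and 5.52% in Poly-E, against 16.03% and 11.5% in Ortho-E, and no Ortho-E library overlapped a Poly-E library. The log2 fold change was 1.30 ± 0.14 (SE, adjusted p = 3.5e-09, edgeR) in *Ypel4*+/+ and 1.45 ± 0.13 (adjusted p = 9.1e-12) in *Ypel4*-/- mice with TMM. As CPM of all counts the level of *Max* was 60.3 ± 3.30 in *Ypel4*+/+ Poly-E and 61.1 ± 10.8 in Ortho-E, a log2 difference of 0.02 ± 0.14 (adjusted p = 0.90), and 0.04 ± 0.12 (adjusted p = 0.80) in *Ypel4*-/- mice. The call of higher *Max* thus rested on the scale.

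*Myc*, the activator of the network (chr15:61985341-61990374, plus strand), was close to the detection limit in both populations. It had 2, 2, 17 and 9 counts in the *Ypel4*+/+ Poly-E libraries and 2, 1, 3 and 2 counts in the *Ypel4*+/+ Ortho-E libraries. *Ypel4*-/- Poly-E libraries held 13, 7, 11 and 11 counts and *Ypel4*-/- Ortho-E libraries 2, 1, 0 and 0. For scale, 3 counts over the 4 libraries are 0.123 CPM of all counts in *Ypel4*-/- Poly-E and 0.148 in *Ypel4*-/- Ortho-E, without TMM. As CPM of all counts the mean levels of *Myc* were 2.16 ± 0.977 and 0.225 ± 0.308 (SD, n = 4), against 1.37 ± 0.590 and 0.318 ± 0.426 CPM with TMM. *Myc* in *Ypel4*-/- Ortho-E was at this floor, with 3 counts over its 4 libraries. In *Ypel4*+/+ mice the ratio of the summed counts per depth, Ortho-E over Poly-E, was 0.873 with TMM (95% exact binomial interval 0.346 to 1.95, counting error only) and 0.365 (0.145 to 0.815) with library totals, and the edgeR call was not made on either scale (log2 fold change -0.05 ± 0.62, adjusted p = 0.95, and -1.30 ± 0.61, adjusted p = 0.062). In *Ypel4*-/- mice the ratio was 0.208 (0.0411 to 0.649) with TMM and 0.0861 (0.0171 to 0.269) with library totals, and *Myc* was called lower in Ortho-E on both scales (log2 fold change -2.18 ± 0.83, adjusted p = 0.023, and -3.51 ± 0.77, adjusted p = 0.00016). The call with TMM was lost without *Ypel4*-/- Ortho-E replicate 3 (log2 fold change -1.85, adjusted p = 0.0689) or 4 (-1.53, adjusted p = 0.13), both of which had 0 counts, and without Poly-E replicate 1 (-1.93, adjusted p = 0.057). *Mycn* had 1 count in *Ypel4*-/- Poly-E replicate 4 and 0 elsewhere, and a count of 0 allows a level of up to 0.122 CPM in *Ypel4*+/+ Poly-E, 0.167 CPM in *Ypel4*+/+ Ortho-E and 0.148 CPM in *Ypel4*-/- Ortho-E. *Mycl*, the third MYC gene, had 3 counts over all 16 libraries.

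*Mxd1* (chr6:86647044-86669159, minus strand) encodes the MXD protein known for its rise in differentiating cells, and it was the most abundant member of the network in Ortho-E. Its level in *Ypel4*+/+ Poly-E was 479.5, 352, 369 and 323 CPM and in *Ypel4*+/+ Ortho-E 2822, 2638, 2421 and 2584 CPM. In *Ypel4*-/- Poly-E it was 298, 379.6, 348 and 331 CPM and in *Ypel4*-/- Ortho-E 2276, 2418, 2463 and 2589 CPM. Every Ortho-E library lay far above every Poly-E library, and the highest Poly-E value was that of *Ypel4*+/+ replicate 1. *Mxd1* rose 7.03-fold with TMM in *Ypel4*+/+ mice (log2 fold change 2.81 ± 0.14, adjusted p = 2.1e-15, edgeR) and 8.11-fold in *Ypel4*-/- mice (3.02 ± 0.12, adjusted p = 1.2e-20). With library totals it went from 573 ± 83.8 to 1663 ± 66.0 CPM of all counts (SD, n = 4) in *Ypel4*+/+ mice and, in *Ypel4*-/- mice, from 531 ± 38.1 to 1611 ± 39.6, log2 fold changes of 1.54 ± 0.11 (adjusted p = 9.2e-12) and 1.6 ± 0.10 (adjusted p = 3.8e-15). By level per length, *Mxd1* ranked 422 of 16937 genes with a count in *Ypel4*+/+ Poly-E and 125 of 14956 in *Ypel4*+/+ Ortho-E.

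*Mxd3* (chr13:55325168-55329758, minus strand) encodes an MXD protein known from dividing cells and moved the opposite way. Its level in *Ypel4*+/+ Poly-E was 155, 209.8, 275 and 265 CPM and in *Ypel4*+/+ Ortho-E 31.7, 48.6, 43.3 and 66.2 CPM. *Ypel4*-/- Poly-E libraries had 194, 208, 222.1 and 266 CPM and *Ypel4*-/- Ortho-E libraries 34.6, 34.1, 38.4 and 52.5 CPM. The populations did not overlap, and *Ypel4*+/+ Poly-E replicate 1, the highest Poly-E library for *Mxd1*, was the lowest for *Mxd3*. *Mxd3* was 4.61-fold lower in Ortho-E of *Ypel4*+/+ mice (log2 fold change -2.21 ± 0.23, adjusted p = 2.0e-06, edgeR) and 4.96-fold lower in *Ypel4*-/- mice (-2.31 ± 0.15, adjusted p = 1.9e-15). The log2 fold changes with library totals were -3.49 ± 0.26 (adjusted p = 1.4e-07) and -3.72 ± 0.14 (adjusted p = 1.1e-19). Of its exon bases, 104 overlap *Prelid1*, and reads on such bases were not counted.

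*Mxi1* (chr19:53310506-53375810, plus strand), an MXD gene with several starts, had 203 ± 9.95 CPM in *Ypel4*+/+ and 192 ± 10.4 CPM in *Ypel4*-/- Poly-E, against 361 ± 31.5 and 395 ± 18.7 CPM in Ortho-E. With TMM it was called higher in Ortho-E in both genotypes, by 0.86 ± 0.12 (adjusted p = 2.9e-07, edgeR) and 1.21 ± 0.12 (adjusted p = 1.1e-10) on the log2 scale. With library totals the sign turned, to -0.42 ± 0.11 (adjusted p = 0.0020) in *Ypel4*+/+ and -0.21 ± 0.11 (adjusted p = 0.085) in *Ypel4*-/- mice. *Mxd4* (chr5:34173883-34187720, minus strand), the MXD gene found in resting cells, was at a low level, with 4 to 46 counts in Poly-E and 5 to 17 in Ortho-E libraries. Its log2 fold change was 0.80 ± 0.45 (adjusted p = 0.13) in *Ypel4*+/+ and 0.66 ± 0.35 (adjusted p = 0.0996) in *Ypel4*-/- mice with TMM, and -0.48 ± 0.45 and -0.73 ± 0.34 with library totals, none of them called.

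*Mnt* (chr11:74830920-74845725, plus strand) encodes the MAX partner found in most cell types, resting and dividing alike. It had 6.65, 9.87, 18.6 and 16.1 CPM in *Ypel4*+/+ Poly-E and 3.80, 4.00, 2.66 and 3.50 CPM in *Ypel4*+/+ Ortho-E. The values of *Ypel4*-/- mice were 10.4, 9.11, 12.8 and 16.4 CPM in Poly-E and 1.35, 1.85, 2.30 and 3.28 CPM in Ortho-E. All Ortho-E libraries were below all Poly-E libraries, though each Ortho-E value rested on 3 to 17 counts, and *Ypel4*+/+ Poly-E replicates 1 and 2 were lower than 3 and 4. *Mnt* was 3.77-fold lower in Ortho-E of *Ypel4*+/+ mice (log2 fold change -1.91 ± 0.33, adjusted p = 3.3e-05, edgeR) and 4.76-fold lower in *Ypel4*-/- mice (-2.25 ± 0.29, adjusted p = 3.4e-08), and by -3.20 ± 0.33 and -3.64 ± 0.27 with library totals.

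*Mga* (chr2:119897228-119969581, plus strand), whose protein ties MAX to Polycomb-type repression, had 7.32 ± 0.297 and 7.48 ± 1.08 CPM in *Ypel4*+/+ and *Ypel4*-/- Poly-E and 11.1 ± 1.51 and 11.4 ± 1.61 CPM in Ortho-E. The call of higher *Mga* with TMM (log2 fold change 0.62 ± 0.20, adjusted p = 0.011, and 0.77 ± 0.20, adjusted p = 0.0013, edgeR) turned to a call of lower with library totals (-0.66 ± 0.21, adjusted p = 0.0066, and -0.63 ± 0.20, adjusted p = 0.0065). *Mlx* (chr11:101087277-101092207, plus strand) had 5.16 ± 0.158 and 4.98 ± 0.479 CPM in Poly-E and 3.92 ± 1.18 and 2.61 ± 0.578 CPM in Ortho-E, where libraries held 4 to 16 counts. It was not called in *Ypel4*+/+ mice with TMM (-0.45 ± 0.29, adjusted p = 0.19) and was called lower in *Ypel4*-/- mice (-0.72 ± 0.30, adjusted p = 0.036). The call in *Ypel4*-/- mice was lost with DESeq2 (adjusted p = 0.076) and without Ortho-E replicate 1 (0.076) or 2 (0.064) or Poly-E replicate 2 (0.062), 3 (0.0515) or 4 (0.072), while library totals gave -1.73 ± 0.29 (adjusted p = 7.4e-06) and -2.12 ± 0.28 (adjusted p = 8.1e-08). *Psmc3ip* overlaps 19.3% of the exon bases of *Mlx*.

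**Figure D2:**
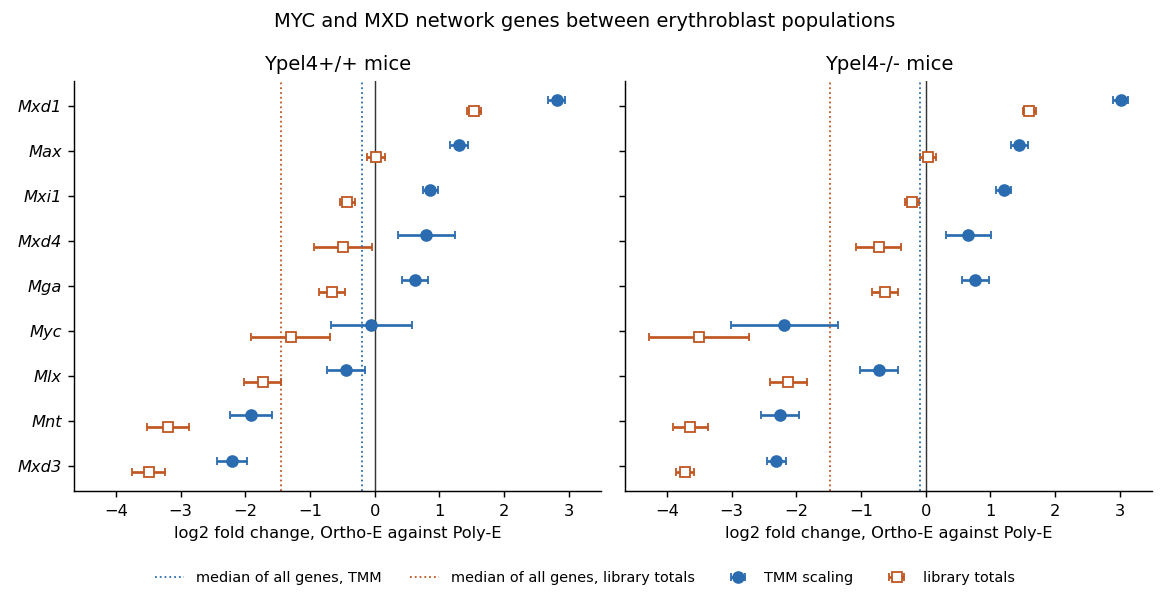
Log2 fold change of the 9 tested genes, Ortho-E against Poly-E, in *Ypel4*+/+ (left) and *Ypel4*-/- mice (right), with TMM scaling (filled circles) and with library totals (open squares). Bars are 1 SE and dotted lines the median of all genes on each scale. *Mxd1* lies above 0 and *Mxd3* and *Mnt* below 0 on both scales, while *Mxi1*, *Mxd4* and *Mga* change sign and *Max* moves to 0.02 and 0.04.

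Levels of different genes were compared per kb of exon. In *Ypel4*+/+ Poly-E the order was *Mxd3* (108.7 ± 26.6 CPM per kb, SD, n = 4), *Mxd1* (81.7 ± 14.7), *Mxi1* (36.1 ± 1.77), *Max* (19.9 ± 0.727), *Mnt* (2.77 ± 1.19), *Mlx* (2.58 ± 0.0789), *Mga* (0.477 ± 0.0194), *Myc* (0.240 ± 0.131) and *Mxd4* (0.214 ± 0.121). The ranges of *Mxd3* and *Mxd1*, of *Mnt* and *Mlx* and of *Myc* and *Mxd4* overlapped there. In *Ypel4*+/+ Ortho-E *Mxd1* led with 561 ± 35.5 CPM per kb, above *Mxi1* (64.2 ± 5.61), *Max* (47.8 ± 7.65) and *Mxd3* (22.8 ± 6.91), and these did not overlap. *Mlx* (1.96 ± 0.592), *Mnt* (0.755 ± 0.127), *Mga* (0.724 ± 0.0984), *Mxd4* (0.382 ± 0.206) and *Myc* (0.260 ± 0.0885) followed, and the ranges of *Mnt* and *Mga*, of *Mga* and *Mxd4* and of *Mxd4* and *Myc* overlapped. *Ypel4*-/- libraries kept the same first 4 genes in each population, with *Mxd3* above *Mxd1* in all 4 Poly-E libraries against 3 of 4 in *Ypel4*+/+ mice.

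The 4 MXD genes together took 89.7% ± 0.506 (SD, n = 4) of the summed level per length of the 10 genes in *Ypel4*+/+ Poly-E and 92.6% ± 1.11 in Ortho-E, and *Max* took 7.91% ± 0.769 and 6.84% ± 1.15. *Myc* and *Mycn* together took 0.0924% ± 0.0439 and 0.0376% ± 0.0142. Within the MXD genes the make-up was exchanged. *Mxd3* went from 42.7% ± 7.92 to 3.26% ± 0.954 of the network and *Mxd1* from 32.6% ± 7.63 to 80.1% ± 2.71. In *Ypel4*-/- mice *Mxd3* went from 44.5% ± 2.97 to 2.88% ± 0.470 and *Mxd1* from 30.4% ± 2.94 to 78.9% ± 0.381. Per length, *Mxd1* was 0.817 ± 0.384 times *Mxd3* in *Ypel4*+/+ Poly-E (0.544 to 1.38) and 26.6 ± 9.41 times in Ortho-E (17.4 to 39.8), with 0.688 ± 0.107 and 27.9 ± 4.13 in *Ypel4*-/- mice. This ratio needs no scaling between libraries, and its ranges in the populations did not overlap in either genotype.

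**Figure D3:**
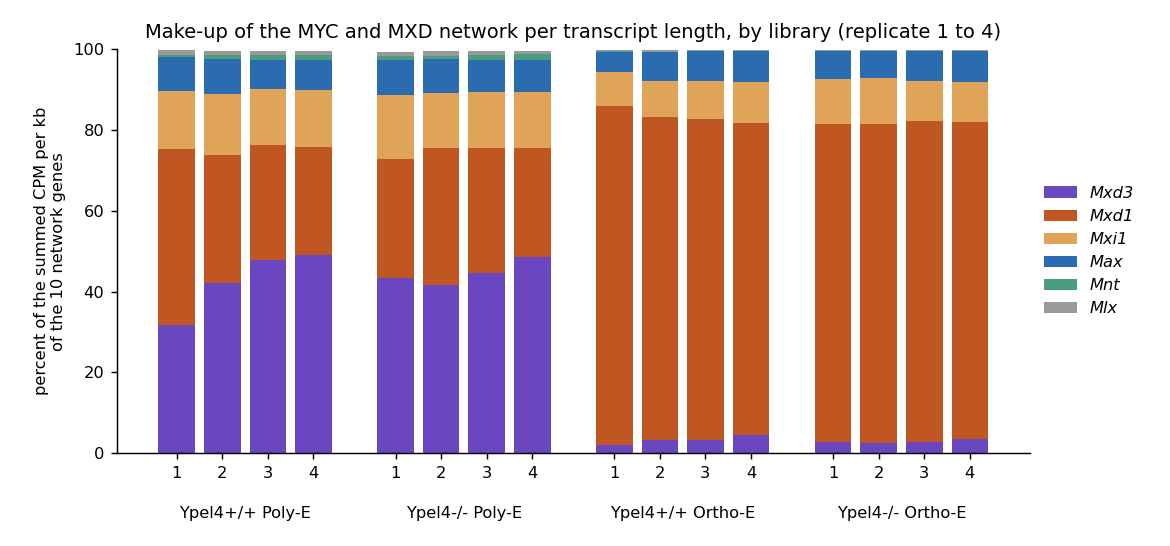
Share of each gene in the summed CPM per kb of the 10 network genes, by library, in percent. *Mxd3* and *Mxd1* both form large parts of the Poly-E bars, and *Mxd1* forms 77.3% to 83.8% of the Ortho-E bars, with the small shares of *Myc*, *Mycn*, *Mxd4* and *Mga* not drawn.

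Ratios to *Max*, the shared partner, need no scaling between libraries either. The ratio of summed MXD level to *Max*, per length, was 11.4 ± 1.17 (SD, n = 4; range 10.2 to 12.7) in *Ypel4*+/+ Poly-E and 13.9 ± 2.97 (12.03 to 18.4) in Ortho-E, which overlapped. In *Ypel4*-/- mice it was 11.0 ± 0.450 (10.4 to 11.3) and 12.9 ± 0.895 (11.9 to 13.8), which did not. *Mxd1* went from 4.11 ± 0.780 to 12.1 ± 2.86 times *Max* in *Ypel4*+/+ mice and *Mxd3* from 5.48 ± 1.42 to 0.470 ± 0.0759 times. *Mxi1* was 1.82 ± 0.111 and 1.36 ± 0.175 times *Max* in *Ypel4*+/+ mice, without overlap, and 1.75 ± 0.0839 and 1.49 ± 0.207 times in *Ypel4*-/- mice, with overlap. *Mnt* went from 0.140 ± 0.0624 to 0.0162 ± 0.00444 times *Max*, and *Mlx* from 0.130 ± 0.00485 to 0.0428 ± 0.0172 times. The highest *Mxd1* ratio, 16.3, was that of *Ypel4*+/+ Ortho-E replicate 1, the library with the lowest *Max* level of Ortho-E (74.4 CPM).

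The comparison of genotypes asked whether the loss of *Ypel4* changes the transcripts of either population. No member was called between *Ypel4*-/- and *Ypel4*+/+ mice by edgeR, in Poly-E (0 of 9 tested, against 0.00807% of 12395 genes) or in Ortho-E (0 of 9, against 0.0285% of 10521 genes), and 0 members had an unadjusted p under 0.05 in either. DESeq2 called 0 as well. *Mxd1* differed by -0.16 on the log2 scale in Poly-E (95% interval -0.42 to 0.09) and by -0.08 in Ortho-E (-0.27 to 0.10). For *Mxd3* the differences were -0.02 (-0.36 to 0.32) and -0.23 (-0.57 to 0.11), and for *Max* -0.02 (-0.24 to 0.20) and 0.02 (-0.23 to 0.27). The interval lay within 1 log2 unit of 0 for 7 of the 9 genes in Poly-E, all but *Myc* and *Mxd4*, and for 6 of 9 in Ortho-E, all but *Myc*, *Mnt* and *Mlx*. Summed lymphocyte markers did not overlap between the genotypes in Ortho-E, and their part in these values was not tested. *Mnt* (-0.53, interval -1.34 to 0.27) and *Mlx* (-0.45, -1.24 to 0.34) had lower means in *Ypel4*-/- Ortho-E, with 32 and 36 counts over 4 libraries. *Myc* differed by 0.72 (-0.29 to 1.72) in Poly-E and by -1.41 (-3.48 to 0.65) in Ortho-E.

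**Figure D4:**
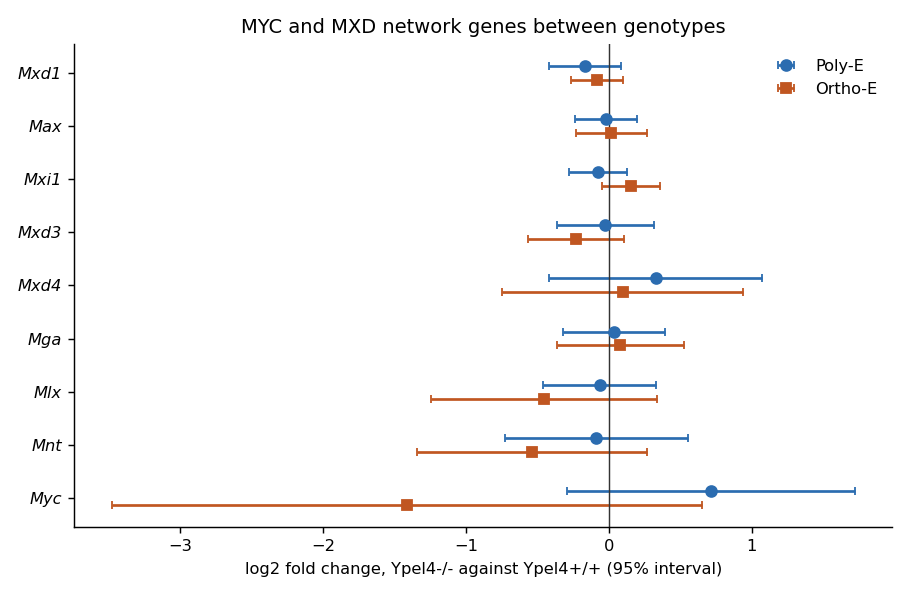
Log2 fold change of the 9 tested genes, *Ypel4*-/- against *Ypel4*+/+, in Poly-E (circles) and Ortho-E (squares), with 95% intervals. Every interval includes 0, and those of *Max*, *Mxd1*, *Mxi1* and *Mxd3* are the narrowest in each population. In Poly-E the interval of *Mxd3* (-0.36 to 0.32) is close in width to that of *Mga* (-0.32 to 0.39).

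Whether the step from Poly-E to Ortho-E differed between genotypes was tested by the interaction in all 16 libraries. No gene was called by edgeR (0% of 13318), with 364 genes at an unadjusted p under 0.05, of which 0 were members. DESeq2 called 1 gene and 0 members. *Myc* came nearest, with an interaction of -2.24 ± 1.11 on the log2 scale (95% interval -4.47 to 0.0025, adjusted p = 1.0, edgeR), and the call of *Myc* in *Ypel4*-/- mice alone is thus not shown to differ from *Ypel4*+/+ mice. The interaction of *Mxd1* was 0.06 (95% interval -0.28 to 0.41) and that of *Mxd3* -0.22 (-0.83 to 0.39).

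The partners of the network were taken from lists of genes known for each role. Their counts are to be read against the shares of all genes called in *Ypel4*+/+ mice, 26.4% higher and 32.1% lower with TMM and 10.4% and 60.3% with library totals. Among 12 genes of the SIN3 corepressor, through which MXD proteins and MNT repress, 3 were called higher and 8 lower in *Ypel4*+/+ Ortho-E (median log2 fold change -0.82 against -0.19 over all genes), and 1 higher and 10 lower with library totals (median -2.11 against -1.45). The 3 of 12 higher were near the share of all genes. The histone-binding *Rbbp7* (-2.23 ± 0.13, and -3.51 with library totals) and *Rbbp4* (-2.0 ± 0.12, and -3.28) had the lowest values of the list. *Arid4b* (2.91 ± 0.13, and 1.63 with library totals), a large subunit, rose on both scales, while *Suds3* rose with TMM only (1.44 ± 0.15, and 0.16 with library totals). Among 10 genes of the MGA complex, 0 were called higher and 8 lower (median -2.02), and 0 and 10 with library totals (median -3.30), led by *L3mbtl2* (-3.01 ± 0.39) and the ubiquitin ligase *Rnf2* (-2.35 ± 0.37), which were lower with library totals too. By edgeR 0 of the 10 were higher at an unadjusted p under 0.05, and DESeq2 called 0 higher.

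MYC coactivators gave 3 higher and 5 lower of 11 (median -0.34), and 1 higher and 8 lower with library totals (median -1.63). The 3 and 1 called higher of 11 were near the shares of all genes. The helicase *Ruvbl1* (-2.13 ± 0.33) and the methyltransferase subunit *Wdr5* (-1.97 ± 0.22), which is on the MGA list too, were lower on both scales, and the chromatin remodeller *Ep400* (2.07 ± 0.12) was higher on both. Genes that set MYC turnover gave 2 higher and 7 lower of 10 (median -1.46), and 1 higher and 8 lower with library totals (median -2.74). The ubiquitin ligase subunit *Skp2* (-2.08 ± 0.16, and -3.37 with library totals) and the ligase *Stub1* (-1.90 ± 0.20, and -3.19) fell, and *Btrc* (2.34 ± 0.14), a further substrate receptor, rose on both scales. *Huwe1*, a large ligase, was higher by 1.04 ± 0.12 with TMM and was -0.25 with library totals.

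Target genes were described from 3 lists. Of 30 nucleolar MYC targets, 27 were tested in *Ypel4*+/+ mice, with 3 called higher, 10 lower and 14 not called (median -0.99), and 25 lower with library totals (median -2.27), where the highest value of the list was that of *Wdr12* (-0.10). With TMM, the 10 of 27 lower were near the share of all genes. *Pa2g4* (-2.35 ± 0.15) and *Nolc1* (-1.74 ± 0.29) were the called genes with the lowest values, and *Wdr12* (1.18 ± 0.42) and *Mrto4* (1.09 ± 0.32) were higher with TMM only (-0.19 with library totals for *Mrto4*). Of 20 metabolic and growth targets, 17 were tested, with 4 higher, 6 lower and 7 not called (median -0.26), and with 1 higher and 10 lower with library totals (median -1.54). These counts were near the shares of all genes on both scales. *Cdk4* (-2.5 ± 0.34, and -3.76 with library totals) and the phosphatase *Cdc25a* (-2.26 ± 0.18, and -3.55), both of the G1 to S step, were lower. *Slc3a2* (1.75 ± 0.13), the heavy chain of an amino acid transporter, was higher on both scales and its light chain *Slc7a5* by 1.47 ± 0.14 with TMM and 0.18 with library totals. Of 6 genes that MYC represses, 4 were tested, with 3 higher and 1 lower on both scales (medians 2.46 and 1.18). The growth arrest gene *Gadd45a* (3.18 ± 0.17, and 1.90 with library totals) and the cyclin-dependent kinase inhibitor *Cdkn1b* (3.04 ± 0.14, and 1.77) rose, and the related inhibitor *Cdkn1a* was lower (-1.37 ± 0.50, adjusted p = 0.020, on 14 Ortho-E counts), a call lost with DESeq2 and without any 1 of 5 of the 8 libraries.

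*Ypel4*-/- mice gave 3 higher and 8 lower for the SIN3 list, 0 and 7 for the MGA complex, 2 and 6 for the coactivators, 2 and 8 for MYC turnover, 1 and 10 of 28 for the nucleolar targets, 4 and 6 for the metabolic targets and 3 and 1 of 5 for the repressed genes, against 29.5% higher and 31.5% lower over all genes. With library totals the counts in the same order were 1 and 10, 0 and 10, 1 and 9, 1 and 9, 0 and 24, 1 and 11, and 3 and 1, against 11.2% and 60.9%. Of the partners of MLX, *Mlxip*, which encodes MondoA, had 22 to 94 counts per group and a log2 fold change of 0.02 ± 0.45 (adjusted p = 0.97) in *Ypel4*+/+ mice, which was -1.26 and a call of lower with library totals, and *Mlxipl*, which encodes ChREBP, had 0 counts in all 16 libraries. *Txnip*, a target of MondoA and MLX, was called higher in Ortho-E with TMM (1.23 ± 0.13 in *Ypel4*+/+ and 1.61 in *Ypel4*-/- mice) against -0.05 and 0.20 with library totals, and *Arrdc4*, a related target, had 1 count per group. Between genotypes, 0 genes of all these lists were called by edgeR or by DESeq2 in either population. By edgeR, 1 of 95 entries was under an unadjusted p of 0.05 in Poly-E, beside 271 of all 12395 genes tested. In Ortho-E it was 8 of 90, beside 387 of 10521. The difference between these 2 tallies was not tested. Gene by gene, the interaction called 0 of 96 entries, with 4 under an unadjusted p of 0.05, beside 364 of 13318 genes.

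**Figure D5:**
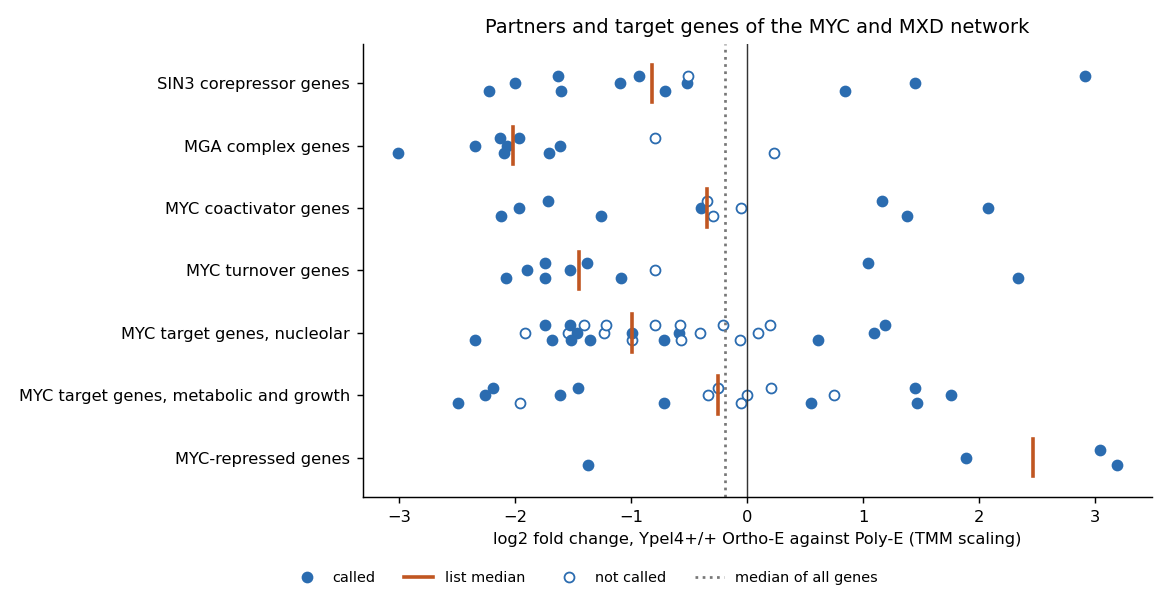
Log2 fold change of each tested gene of 7 lists, *Ypel4*+/+ Ortho-E against Poly-E with TMM scaling. Filled points are called at an adjusted p of 0.05 and open points are not, orange lines are list medians and the dotted line is the median of all genes (-0.19). The MGA complex has 0 called points above 0, and 3 of 4 tested MYC-repressed genes lie above 1.

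The genes whose pattern over the 16 libraries was most like that of *Mxd1* were sought by the root mean square difference of log2 CPM after centring, over 4834 genes that averaged 10 CPM or more. The nearest were *Tax1bp1*, an autophagy receptor (0.0637), *Wdr26*, a ubiquitin ligase subunit (0.0680), and *Sertad2* (0.0713). *Tax1bp1* went from 221 to 1439 CPM and *Wdr26* from 927 to 6103 CPM in *Ypel4*+/+ mice. For *Mxd3* the nearest were *Chtf18*, a subunit of a clamp loader of DNA replication (0.136), *Cdca4* (0.148) and the tubulin gene *Tuba1b* (0.151). *Chtf18* went from 66.2 to 13.3 CPM and *Tuba1b* from 537 to 113 CPM. The likeness follows mainly the difference between the populations, which all these genes share.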

How the data were processed

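RNA of FACS-sorted bone marrow erythroblasts was made into TruSeq libraries and sequenced as read pairs. The authors aligned the reads to GRCm38 and counted fragments per gene with featureCounts 1.6.4 without strand, leaving out fragments that matched several places or overlapped several genes, so the deposited values were raw counts per gene for each library. The depth per library and its limits are given with the results. The exact binomial intervals and the floors cover counting error only. Intervals of log2 fold changes come from the edgeR fit and include the spread between libraries.

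Groups followed genotype and population as labelled. Genes whose counts summed to 10 or more within a fit were tested with edgeR 4.0.16 in R 4.3.3 (TMM factors, quasi-likelihood fit and test, Benjamini-Hochberg adjustment over all genes tested, called at 0.05 or less, two-sided) in 5 comparisons, namely genotype in each population, population in each genotype, and their interaction. Population comparisons used 8 libraries each and shared none with each other, but each shared its libraries with the genotype comparisons. Fits were also run on simulated counts drawn independently for each library, and no result here rests on them. Alternatives were DESeq2 1.42.0, other scalings and filters, a replicate block and leaving out each library. Library pairs of 1 group differed by more than sampling noise (chi-square per degree of freedom 3.87 to 30.9). The labels do not state that replicates were separate mice, and p-values measure the spread between these libraries.

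Same-numbered libraries of the 2 populations also shared a second number in their library names and were taken as 1 animal, which the labels do not state (correlation of deviations 0.487 to 0.651 in *Ypel4*+/+ and 0.086 to 0.565 in *Ypel4*-/- mice). Same-numbered *Ypel4*+/+ and *Ypel4*-/- libraries correlated at 0.233 to 0.642 in Poly-E and at -0.135 to 0.339 in Ortho-E. Pairs of different number reached 0.601 in Poly-E and 0.321 in Ortho-E. Between populations they reached 0.434 in *Ypel4*+/+ and 0.288 in *Ypel4*-/- mice, so only in *Ypel4*+/+ mice did same-numbered pairs all lie higher. There, and between genotypes in Poly-E, pairs within replicates 1 and 2 or within 3 and 4 were all positive. Pairs across that split were all negative in these comparisons, and what it reflects was not tested.

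The members and the gene lists were chosen with earlier results of these data known. Named genes were all members, *Mycl*, *Mlxip*, *Mlxipl*, *Txnip* and *Arrdc4*, the 2 highest and 2 lowest called genes of each other list in *Ypel4*+/+ mice, the most abundant gene of each marker list, the 3 genes most like *Mxd1* and *Mxd3*, and *Ypel4*, of which 1 gene is not reported here. Marker genes named at 0, and the erythroblast markers named beside *Hbb-bs*, were chosen after their values were seen. Likeness used log2 of CPM plus 0.5. Figures were drawn with matplotlib 3.10.9.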

Additional observations from a re-analysis of the deposited data

Results flagged for a closer look

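*Mycn* in *Ypel4*-/- Poly-E replicate 4 stood apart from the other 3 libraries of its group, at 0.0514 CPM against 0 in each. The value was 1 count, in the deepest library. Of 37 sets of 4 values examined, 1 stood apart in this way. A lone count beside 0 in every other library of a group always does. The rule's chance rate of about 1 in 20 thus does not apply to it.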

How the results depend on the processing

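The scale was the choice that moved most results. With library totals in place of TMM, the members called higher were 1 in *Ypel4*+/+ and 1 in *Ypel4*-/- mice, the members called lower 5 in *Ypel4*+/+ mice, and the log2 fold changes turned for *Mxi1* (-0.42 and -0.21), *Mxd4* (-0.48 and -0.73) and *Mga* (-0.66 and -0.63) in *Ypel4*+/+ and *Ypel4*-/- mice. In *Ypel4*+/+ mice the same scale gave 1 SIN3, 1 coactivator, 1 turnover, 0 nucleolar and 1 metabolic gene higher, and 8 coactivator, 25 nucleolar and 10 metabolic genes lower. In *Ypel4*-/- mice it gave 1 SIN3, 1 coactivator, 1 turnover, 0 nucleolar and 1 metabolic gene higher, and 24 nucleolar and 11 metabolic genes lower. Between genotypes in Poly-E it turned *Max* to 0.0315 and *Mxd3* to 0.0232. Over all genes it gave 1217 higher and 7086 lower in *Ypel4*+/+ mice, against 3097 and 3774 with TMM, and 1338 and 7288 in *Ypel4*-/- mice, against 3538 and 3767. These shifts follow from the construction of the scale.

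With edgeR's filterByExpr, which tests fewer genes, 2 members were called lower in *Ypel4*-/- mice (*Mlx* was not called, adjusted p = 0.060, and *Myc* was not tested), *Mxd4* was called higher there (adjusted p = 0.026), 4 nucleolar genes were called higher there, and 0 MYC-repressed genes were called lower in either genotype. DESeq2 also called 0 MYC-repressed genes lower in either genotype. *Myc* in *Ypel4*+/+ mice was 0.16 with DESeq2 and 0.0774 with DESeq2 size factors in edgeR, and *Max* between genotypes in Ortho-E was -0.0016 with all 16 libraries in the fit. Over all genes between genotypes, the alternatives other than the block that kept every library called at most 2 higher and 2 lower in Poly-E and at most 3 of each in Ortho-E (3 higher with no filter, 2 higher with the term for replicates 1 and 2 against 3 and 4, 3 lower with DESeq2). The interaction, with 0 calls, gained 1 with DESeq2, 1 with the block and 1 without *Ypel4*+/+ Ortho-E replicate 1. The cause was not tested.

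With the replicate number as a block, 2 nucleolar genes were called higher in *Ypel4*-/- mice, *Mxd3* between genotypes in Poly-E was 0.00021 and *Myc* in *Ypel4*+/+ mice 0.0348. Over all genes it called 1 higher and 3 lower between genotypes in Poly-E, against 0 and 1 without it, and 8 higher and 7 lower in Ortho-E, against 1 and 2. The block changed no member call, and neither did the term for replicates 1 and 2 against 3 and 4, leaving out the globin genes, or no filter.

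Leaving out each library in turn gave 0 to 1 MYC-repressed genes lower in each genotype and 1 to 2 nucleolar genes higher in *Ypel4*-/- mice. It gave log2 fold changes of -0.28 to 0.47 for *Myc* in *Ypel4*+/+ mice. Between genotypes it gave -0.0550 to 0.00838 for *Max*, -0.16 to 0.0805 for *Mxd3*, -0.29 to 0.15 for *Mnt* and -0.0557 to 0.0870 for *Mga* in Poly-E. In Ortho-E it gave -0.0734 to 0.0581 for *Max*, -0.10 to 0.41 for *Mxd4* and -0.00759 to 0.16 for *Mga*. The interaction ranged from -0.0806 to 0.17 for *Max*, -0.40 to 0.00742 for *Mxd3*, -0.46 to 0.0572 for *Mxd4* and -0.0339 to 0.18 for *Mga*. None of these genotype or interaction values was called, and the cause of the turned signs was not tested.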
